A study of Mus musculus with 30 samples.

Results

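The response of the thymic mesenchyme to withdrawal of vascular endothelial growth factor (VEGF) was measured as 1 change shared by its CD140a-positive and CD146-positive cells. The comparison took 12 of the series' 30 RNA sequencing libraries: 2 control and 4 Trap libraries of each population. All came from newborn B6.SJL mice of mixed sex, for which the labels name no altered allele. Mice received either aflibercept (the VEGF-Trap, called Trap here) or human Fc protein (hFC, the control) at postnatal day 1, and the thymus was collected 2 days later, at day 3. Aflibercept joins ligand-binding parts of VEGF receptors 1 and 2 to an Fc and captures VEGF-A before it reaches its receptors. After digestion and magnetic depletion of CD45-positive cells, mesenchyme was sorted from cells without EpCAM, CD31, CD45, Ter119, CD3, CD4 and CD8 by surface CD140a or CD146. Of 18847 genes in the table, the 11470 that reached 1 FPKM (a library-scaled fragment count per kilobase) in at least 2 libraries of each population were compared. The number of animals in a library and the litters they came from are not given in the labels. Each p-value therefore reflects library-to-library spread alone, which may be technical in part.

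Mesenchymal cells build the capsule, septa and vessel walls of the thymus. Cells with CD140a, the platelet-derived growth factor (PDGF) receptor alpha, are mostly fibroblasts that supply fibroblast growth factors and other signals to the epithelium. Cells with CD146 and without CD31 are mostly pericytes and smooth muscle cells that wrap vessels and depend on PDGF-B from endothelium. Both kinds of cell can secrete VEGF-A, whose main signalling receptor, VEGFR2 (gene Kdr), is a protein of endothelium.

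The genes of the sorted surface proteins matched the gates. Pdgfra lay at 103 to 131 FPKM in the CD140a-positive and 1.28 to 3.33 FPKM in the CD146-positive libraries, and Mcam, the gene of CD146, at 1.09 to 2.96 and 105 to 150 FPKM. The mesenchymal receptor gene Pdgfrb averaged 33.7 ± 1.88 FPKM in CD140a-positive controls and 153 ± 32.5 FPKM in CD146-positive controls (SD, n = 2 each). Col3a1, a fibrillar collagen, averaged 2062 ± 280 and 206 ± 4.15 FPKM in the same controls. Of genes of cells outside the gates, Epcam did not exceed 2.61 FPKM, Ptprc (CD45) 0.91, Cd3e 0.80, Psmb11 0.74, Aire 0.44 and Krt5 0.24. Pecam1 (CD31) lay at 1.42 to 3.17 and Enpep (Ly51), which the gate did not use, at 1.19 to 9.34 FPKM. Of 14 thymocyte markers, 4 averaged at least 1 FPKM with Trap in CD140a-positive and 2 in CD146-positive cells, against 0 in either control group. Of 15 thymic epithelial markers, 1 did so with Trap in CD140a-positive and 5 in CD146-positive cells, against 1 and 2 in controls. Per library, 11181 to 11694 genes reached 1 FPKM and FPKM values summed to 184608 to 197051. The number of reads behind them is unknown.

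Libraries of 1 population were about as alike across treatments as within a treatment. Across genes, the Pearson correlation of log2(FPKM + 1) was 0.936 to 0.947 within a treatment and 0.931 to 0.946 between Trap and control in CD140a-positive cells. In CD146-positive cells it was 0.906 to 0.958 and 0.902 to 0.948. A pair of CD146-positive libraries, control replicate 1 and Trap replicate 2, scored 23.5 and 36.0 on the second principal component, which held 7.43% of the variance, and the other 4 scored -24.1 to 1.18. Beside the results below, values without that pair are given only for the pooled medians and counts of the cell cycle lists. A pooled count of genes without it is in the closing section. The pair altered other results too, which are given with all 12 libraries.

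No gene passed the test for a shared Trap change. In limma's moderated test on log2(FPKM + 1), with population as a blocking factor, 0 of 11470 genes (0% higher and 0% lower) had a Benjamini-Hochberg adjusted p under 0.05. The smallest adjusted p was 0.270. At an unadjusted p under 0.05 there were 759 genes (6.62%), of which 280 (2.44%) were higher and 479 (4.18%) lower with Trap. That split depended on scaling: it was 373 higher and 379 lower under TPM scaling, 334 and 420 under upper quartile scaling, and 396 and 380 under quantile normalization. Within each population 0 genes (0%) passed in limma, and at an unadjusted p under 0.05 there were 576 (5.02%: 2.25% higher and 2.77% lower) in CD140a-positive and 728 (6.35%: 2.65% higher and 3.7% lower) in CD146-positive cells. In CD146-positive cells the split of 304 higher and 424 lower became 374 and 323 under TPM scaling and 369 and 353 under quantile normalization. In CD140a-positive cells the split of 258 and 318 became 285 and 288, and 303 and 281.

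The test bounds the size of a shared change for most genes. The 95% interval of the change lay within 1 log2 unit of 0 for 10400 genes (90.7%) and within 0.5 log2 units for 4636 (40.4%). The median standard error was 0.189 on the log2(FPKM + 1) scale, which understates differences of genes at low levels. The pooled change was below 0 for 6182 genes (53.9%), with a median of -0.02, and exceeded 1 log2 unit in either direction for 28 genes (0.244%).

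The changes measured separately in the populations, which share no library, were weakly alike. Across the 11470 genes, which are not independent replicates, Pearson's r of the CD140a and CD146 changes was 0.0869 and Spearman's rho 0.0974, and 54.1% of genes had the same sign. Trap and control libraries did not overlap in either population, in 1 direction, for 68 genes that were higher (0.593%) and 97 that were lower (0.846%). Another 79 (0.689%) did not overlap in opposite directions. The share of all genes that lay apart within 1 population, whatever the other did, was not counted. With so few libraries, such separation can arise without an effect of Trap. Where it is given below for a gene or a sum, it describes the values and tests nothing.

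**Figure D1:**
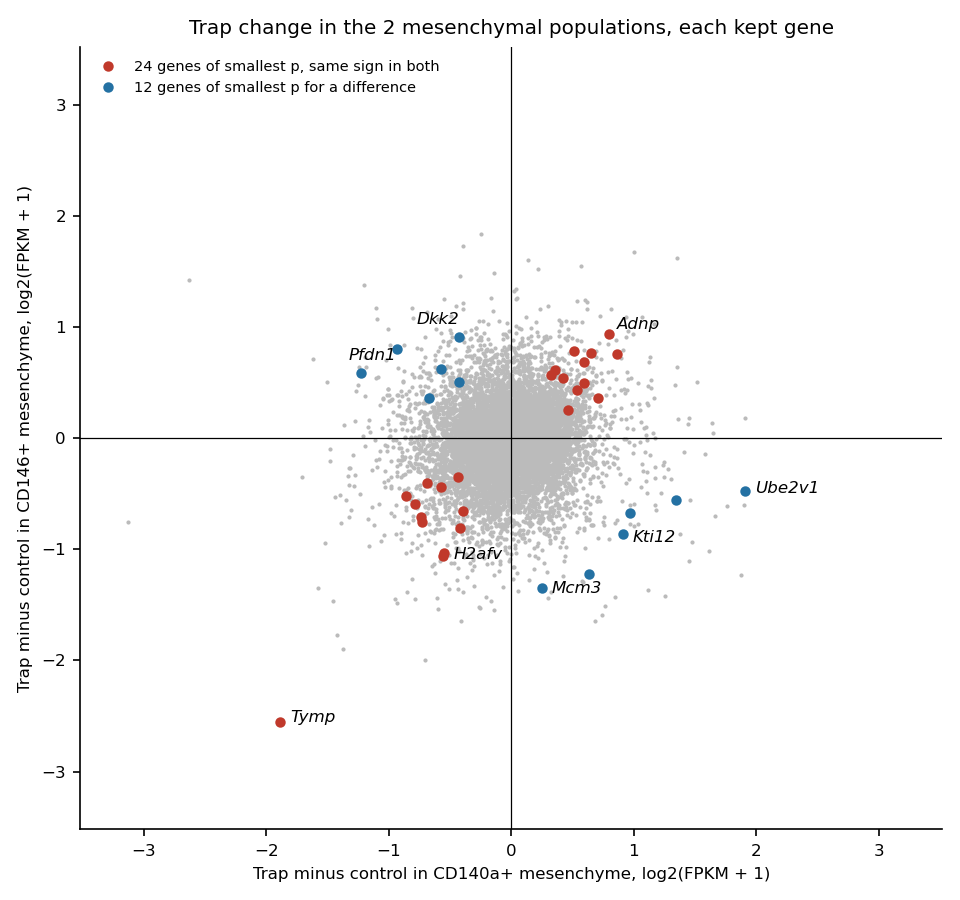
Each grey point is 1 of the 11470 genes, placed by its Trap minus control difference in log2(FPKM + 1) in CD140a-positive (x axis) and CD146-positive (y axis) mesenchyme. Among genes with a mean of at least 5 FPKM, red points are the 24 of smallest pooled p (12 per direction) and blue points the 12 of smallest p for a difference between populations (6 per direction). Tymp lies alone at the lower left, at -1.89 and -2.55, and the grey cloud has little slope.

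Tymp, the gene of thymidine phosphorylase, had the smallest p. This enzyme breaks thymidine down and was once described as an endothelial growth factor of platelets. Tymp stood at 10.3 and 7.23 FPKM in controls and 2.16, 2.79, 2.12 and 0.23 with Trap in CD140a-positive cells. Among CD146-positive cells it was at 13.9 and 12.2 FPKM in controls and 4.40, 0.34, 1.74 and 0.65 with Trap. All 8 Trap libraries lay below all 4 controls. The pooled log2 difference was -2.22 ± 0.36 (SE), with a 95% interval of -3.00 to -1.44 and a limma adjusted p of 0.270. Values written with ± SE below are such Trap minus control differences of log2(FPKM + 1) unless stated. With a pseudocount of 5 in place of 1, Tymp alone passed in limma, at an adjusted p of 0.0156. Tymp lies on the minus strand of chromosome 15, from 89371931 to 89377039 (GRCm38), and shares exon sequence with Ncaph2, a condensin gene on the plus strand, and with Sco2. Ncaph2, named here because of that overlap, stood at 3.52 and 3.40 FPKM in controls and 1.92, 2.26, 2.62 and 2.86 with Trap in CD140a-positive cells and, in CD146-positive cells, at 4.37 and 4.34 FPKM in controls and 4.39, 2.59, 3.41 and 2.39 with Trap. Its Trap and control libraries overlapped in CD146-positive cells, and its log2 difference was -0.38 ± 0.17. Whether strand was used in counting is not given, so Tymp is uncertain to the extent that reads of these genes were mixed.

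Among genes with a treatment mean of at least 5 FPKM in both populations, the other 11 lower genes of smallest p included housekeeping proteins of several compartments. Fkbp7, a protein-folding isomerase of the endoplasmic reticulum on chromosome 2 (76663044 to 76673116), stood at 34.5 and 31.8 FPKM in controls and 18.5, 19.2, 19.02 and 21.5 with Trap in CD140a-positive cells. In CD146-positive cells it stood at 12.1 and 7.32 FPKM in controls and 5.66, 6.18, 5.36 and 4.49 with Trap. The Fkbp7 groups did not overlap in either population, and its log2 difference was -0.72 ± 0.13 (limma adjusted p 0.330). H2afv, a histone H2A variant, stood at 12.3 and 17.2 FPKM in controls and 8.52, 10.3, 9.37 and 10.5 with Trap in CD140a-positive cells. Among CD146-positive cells it was at 16.98 and 21.9 FPKM in controls and 8.30, 12.2, 8.64 and 7.26 with Trap, again with no overlap, and the log2 difference was -0.79 ± 0.16.

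Rpa2 encodes a subunit of replication protein A, which coats single-stranded DNA. Rpa2 stood at 8.45 and 10.6 FPKM in controls and 7.42, 5.83, 4.76 and 6.72 with Trap in CD140a-positive cells. In CD146-positive cells it stood at 6.21 and 8.25 FPKM in controls and 2.13, 3.94, 3.10 and 2.66 with Trap. Each Trap library was below both controls of its population, and the log2 difference was -0.81 ± 0.18 (limma adjusted p 0.352). Smaller differences with little spread were seen for Chchd2, a mitochondrial protein (-0.39 ± 0.08), and Ykt6, a SNARE of vesicle fusion (-0.52 ± 0.11). Chchd2 lay at 51.5 to 54.1 FPKM in CD140a-positive controls and 37.5 to 42.9 with Trap, and at 61.2 and 43.9 to 51.5 in CD146-positive cells. The remaining 6 were Shisa4 (-0.74 ± 0.17), Mrpl16 of the mitochondrial ribosome (-0.69 ± 0.17), the secreted C1qtnf2 (-0.69 ± 0.17), Armcx4 (-0.61 ± 0.14), glycophorin C (Gypc, -0.55 ± 0.14) and Aldh18a1 of proline synthesis (-0.50 ± 0.13). All 12 lower genes had groups that did not overlap in either population (against 0.846% of all genes). They were chosen for small p, so this describes them and tests nothing.

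**Figure D2:**
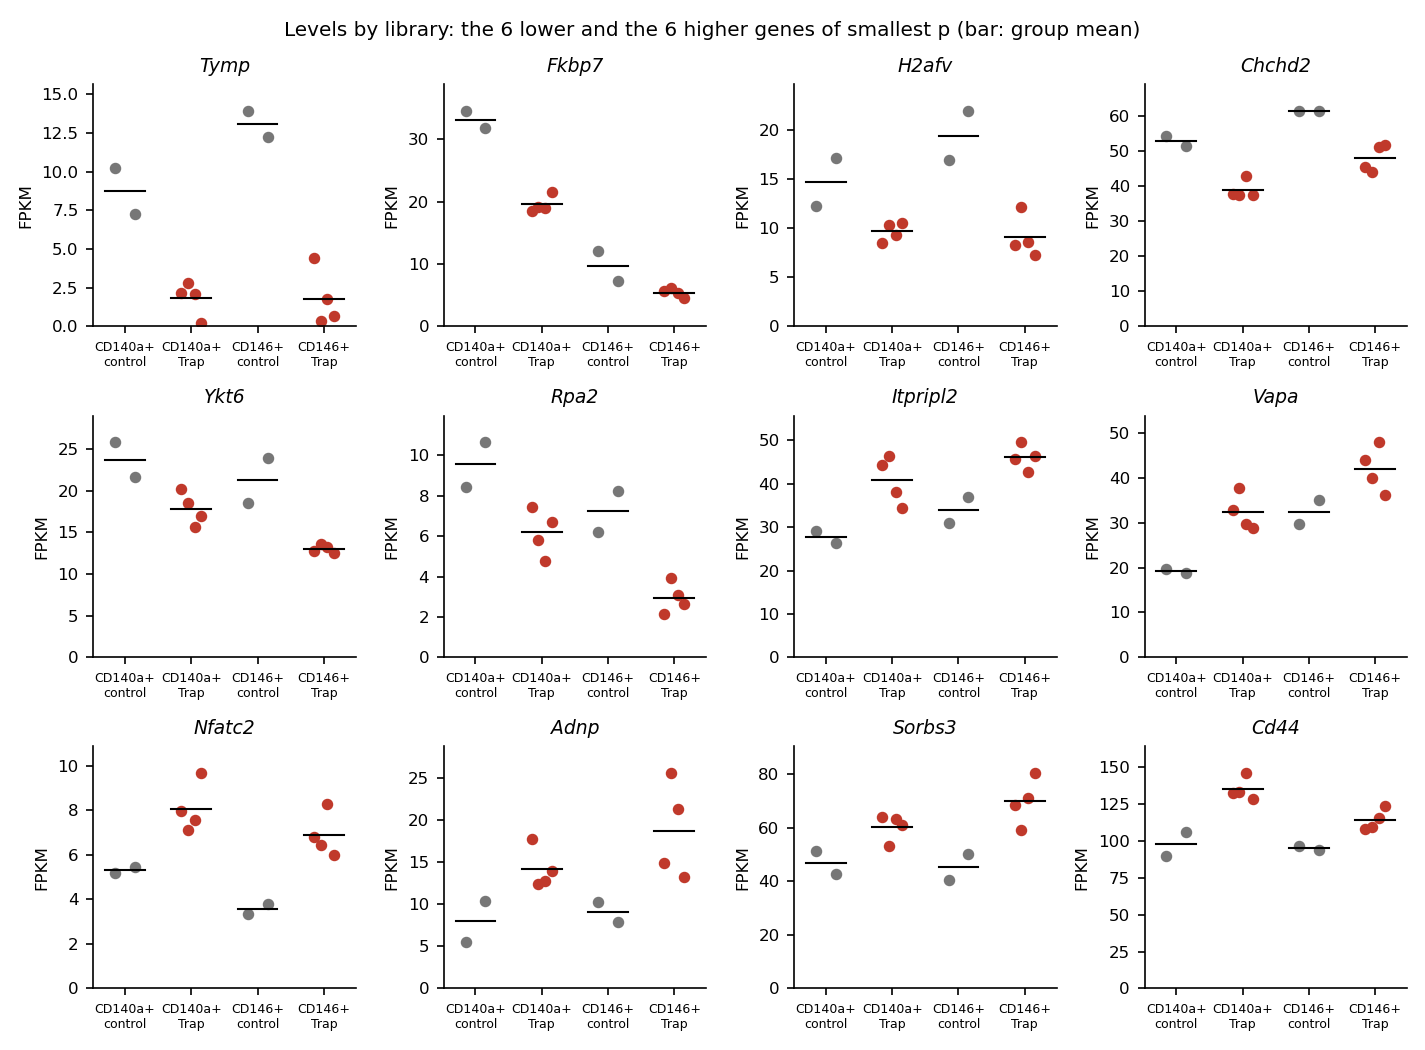
Each panel gives the FPKM of 1 gene (linear y axis from 0) in the 12 libraries by group, grey for control and red for Trap, with a bar at the group mean. In these 12 genes, each Trap library lies on 1 side of both controls of its own population. Tymp is at most 4.40 FPKM in the Trap libraries and at least 7.23 in the controls.

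The 12 higher genes chosen in the same way had adhesion, membrane and transcription factor genes among them. Cd44, the hyaluronan receptor, stood at 90.1 and 106 FPKM in controls and 133, 133, 146 and 129 with Trap in CD140a-positive cells. In CD146-positive cells Cd44 stood at 96.9 and 94.02 FPKM in controls and 108, 109, 116 and 124 with Trap. Controls and Trap libraries did not overlap, and the log2 difference was 0.36 ± 0.08 (limma adjusted p 0.467). Sorbs3, or vinexin, an adaptor at cell-matrix adhesions, lay at 42.7 to 51.3 FPKM in CD140a-positive controls and 53.4 to 64.1 with Trap. In CD146-positive cells Sorbs3 lay at 40.4 to 50.2 and 59.1 to 80.4 FPKM, and its log2 difference was 0.49 ± 0.11. Nfatc2, a transcription factor activated through calcineurin, stood at 5.19 and 5.47 FPKM in controls and 7.97, 7.11, 7.57 and 9.66 with Trap in CD140a-positive cells. In CD146-positive cells Nfatc2 stood at 3.32 and 3.81 FPKM in controls and 6.82, 6.44, 8.29 and 5.98 with Trap, without overlap, and the log2 difference was 0.65 ± 0.14.

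Itpripl2, on chromosome 7 (118485111 to 118491975), had the smallest p among the higher genes. It stood at 29.00 and 26.3 FPKM in controls and 44.3, 46.5, 38.1 and 34.4 with Trap in CD140a-positive cells. Among CD146-positive cells it was at 30.9 and 37.1 FPKM in controls and 45.7, 49.5, 42.8 and 46.5 with Trap, and its log2 difference was 0.49 ± 0.10 (limma adjusted p 0.349). Vapa, which tethers the endoplasmic reticulum to other membranes, differed by 0.53 ± 0.11 and Adnp, a homeobox protein of chromatin, by 0.87 ± 0.19, both without overlap. The others were Ost4 of the oligosaccharyltransferase (0.81 ± 0.20), Eral1 of mitochondrial ribosome assembly (0.71 ± 0.18), the glucocorticoid receptor co-chaperone Fkbp5 (0.64 ± 0.18), thrombomodulin (Thbd, 0.45 ± 0.13), the transcription factor Klf5 (0.54 ± 0.16) and the EGR corepressor Nab1 (0.48 ± 0.12). Ost4 shares exon sequence with Agbl5 on the other strand and Adnp with Gm20716 on the same strand. Both are uncertain in the same way as Tymp. Of the 12, 10 did not overlap in either population (against 0.593% of all genes). Nab1 overlapped in CD140a-positive and Klf5 in CD146-positive cells. The 12 were chosen for small p, so this too describes them and tests nothing. Limma adjusted p-values of the 24 genes ran from 0.270 to 0.581.

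The pooled value averages populations, so the difference between their Trap changes was tested as well. In limma 0 genes passed (0% in either direction, smallest adjusted p 0.241), and 509 (4.44%) had an unadjusted p under 0.05, with the CD140a change above the CD146 change for 243 (2.12%) and below it for 266 (2.32%). The 12 genes described were of smallest p with a mean of at least 5 FPKM in 1 population. Mcm3, a subunit of the replicative helicase, stood at 5.81 and 7.10 FPKM in controls and 6.92, 8.39, 6.46 and 9.98 with Trap in CD140a-positive cells. In CD146-positive cells Mcm3 stood at 10.7 and 10.1 FPKM in controls and 2.59, 5.08, 3.22 and 3.42 with Trap, where all 4 Trap libraries were below both controls. The CD140a change of Mcm3 exceeded the CD146 change by 1.60 ± 0.34 (limma adjusted p 0.761). With the spread estimated over all 30 libraries, Mcm3 passed in limma within CD146-positive cells, at -1.35 and an adjusted p of 0.0390. Kti12, a factor of tRNA modification, was 4.23 and 3.51 FPKM in controls and 8.77, 6.14, 10.5 and 7.71 with Trap in CD140a-positive cells. In CD146-positive cells Kti12 was 22.9 and 15.7 FPKM in controls and 8.70, 12.8, 9.74 and 9.24 with Trap, and the groups lay apart in opposite directions with a difference of 1.77 ± 0.32 (limma adjusted p 0.487).

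Ube2v1, a partner of ubiquitin-conjugating enzymes, was 0.31 and 1.07 FPKM in controls and 4.56, 6.34, 3.69 and 6.66 with Trap in CD140a-positive cells. In CD146-positive cells Ube2v1 was 6.99 and 8.91 FPKM in controls and 4.46, 5.72, 8.67 and 3.77 with Trap, with overlap, and the difference was 2.38 ± 0.45. The same difference, CD140a change minus CD146 change, was 1.90 ± 0.42 for Phlda3, a p53 target that restrains Akt, 1.86 ± 0.45 for the repressor E2f8 and 1.65 ± 0.39 for Tmem204. In the other direction the WNT modulator Dkk2 gave -1.34 ± 0.30. Dkk2 stood at 92.6 and 68.9 FPKM in controls and 65.5, 55.7, 48.7 and 68.8 with Trap in CD140a-positive cells, and in CD146-positive cells at 0.52 and 0.12 FPKM in controls and 1.01, 1.40, 1.67 and 1.79 with Trap. Both Dkk2 comparisons lay apart, narrowly in CD140a-positive cells, in opposite directions and at very different levels. Pfdn1 of prefoldin (-1.81 ± 0.42), Rbm43 (-1.73 ± 0.42), Rmnd5b (-1.20 ± 0.29), the kinase gene Camk2g (-1.04 ± 0.22) and Pamr1 (-0.93 ± 0.22) completed the 12. Rmnd5b shares exon sequence with Nhp2 and Kti12 with A730015C16Rik, each on the other strand, and Ube2v1 with Gm20431 on the same strand. Rmnd5b, Kti12 and Ube2v1 are uncertain in the same way as Tymp.

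The genes of VEGF ligands and receptors showed no shared difference past the test. Of 10 listed genes 8 were kept, 0 passed and 6 were above 0. At an unadjusted p under 0.05 in limma, 1 (Pgf) was higher (against 2.44% of all genes). The median of the 8 was 0.18, beside -0.02 over all genes. Vegfa, the ligand bound by Trap, stood at 52.2 and 47.2 FPKM in controls and 67.7, 60.7, 58.1 and 61.8 with Trap in CD140a-positive cells. In CD146-positive cells it stood at 20.4 and 22.5 FPKM in controls and 19.5, 21.6, 23.5 and 21.98 with Trap. Vegfa was higher in each Trap library than in both controls among CD140a-positive cells and overlapped in CD146-positive cells. Separation within 1 population was not counted over all genes, so here it describes Vegfa and tests nothing. The pooled Vegfa difference was 0.16 ± 0.09, with a 95% interval of -0.04 to 0.37. The limma adjusted p was 0.772 for the pooled change and 1.00 for the difference between populations.

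Pgf, placental growth factor, is a ligand of VEGFR1 that the receptor part of Trap can also bind. Pgf stood at 2.47 and 2.21 FPKM in controls and 7.47, 6.23, 5.87 and 4.47 with Trap in CD140a-positive cells. Among CD146-positive cells it was at 6.42 and 11.3 FPKM in controls and 8.34, 6.48, 7.19 and 12.1 with Trap. The Pgf groups lay apart in CD140a-positive cells and overlapped in CD146-positive cells. Its change was 1.05 in the former and -0.04 in the latter, the pooled difference was 0.51 ± 0.24 (limma adjusted p 0.748), and the difference between populations was 1.09 ± 0.39 (adjusted p 1.00). Figf, which encodes the lymphatic ligand VEGF-D, was 21.7 and 20.8 FPKM in controls and 12.4, 16.8, 11.5 and 13.8 with Trap in CD140a-positive cells. In CD146-positive cells Figf was 7.60 and 0.29 FPKM in controls and 3.49, 12.5, 3.77 and 5.49 with Trap, overlapping widely, and the pooled value of 0.18 ± 0.44 turned negative without CD146 control replicate 2 (-0.53), without CD146 Trap replicate 2 (-0.02) and at a pseudocount of 5 (-0.05).

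Vegfb gave -0.26 ± 0.24 and Vegfc, the main lymphatic ligand, 0.35 ± 0.30. The receptor Flt1 (VEGFR1) gave 0.17 ± 0.19, and the co-receptors gave 0.23 ± 0.20 for Nrp2 and -0.01 ± 0.10 for Nrp1. The sign of Nrp1 flipped under TPM, upper quartile and quantile scaling. The receptors Kdr, at 0.11 to 0.97 FPKM, and Flt4 (VEGFR3), at 0.01 to 0.71 FPKM, did not reach the filter.

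**Figure D3:**
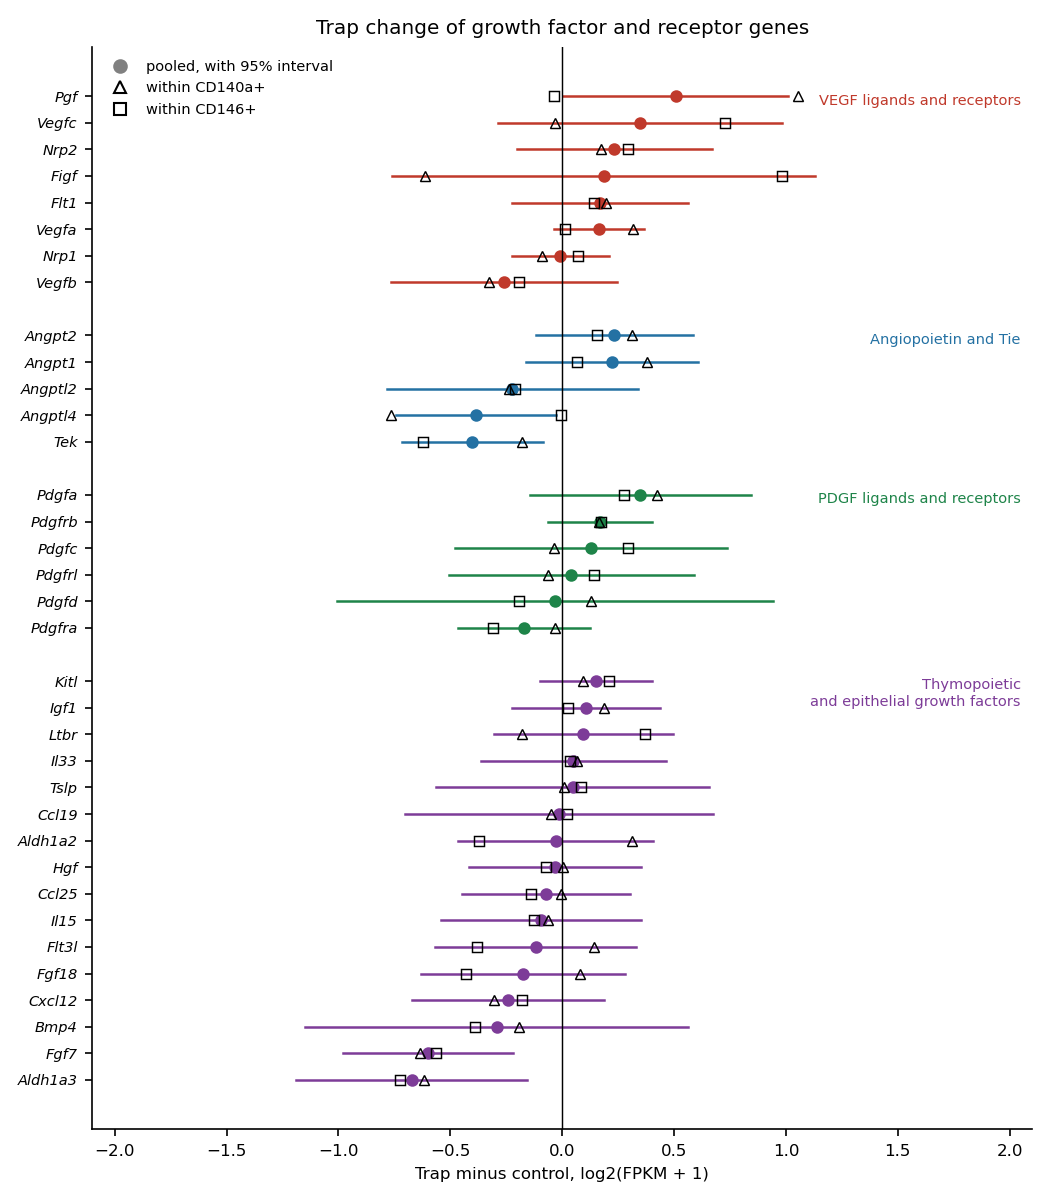
Points give the pooled Trap minus control difference in log2(FPKM + 1) with its 95% interval from limma for the kept genes of 4 lists, and open triangles and squares the CD140a-positive and CD146-positive values. The intervals of Tek, Angptl4, Fgf7 and Aldh1a3 lie below 0 and that of Pgf just above. None of these passed after adjustment.

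Angiopoietin signalling runs between mural cells and the endothelial Tie receptors. Of 7 listed genes, which include the angiopoietin-like Angptl2 and Angptl4, 5 were kept and 0 passed, with a median of -0.22. At an unadjusted p under 0.05 in limma, 2 were lower, Tek and Angptl4 (against 4.18% of all genes). Tek, the gene of the receptor Tie2, stood at 32.8 and 23.5 FPKM in controls and 26.1, 22.1, 25.5 and 24.03 with Trap in CD140a-positive cells. In CD146-positive cells Tek stood at 2.82 and 2.12 FPKM in controls and 1.48, 1.42, 1.17 and 0.94 with Trap, where Trap lay below both controls, and the pooled difference was -0.40 ± 0.15. Angptl4, a secreted lipase inhibitor, stood at 29.6 and 25.8 FPKM in controls and 15.4, 13.1, 19.3 and 16.2 with Trap in CD140a-positive cells. In CD146-positive cells Angptl4 stood at 8.58 and 9.43 FPKM in controls and 8.84, 10.1, 10.9 and 6.65 with Trap. Trap lay below both controls in CD140a-positive cells only and overlapped them in the other population, with a pooled difference of -0.38 ± 0.17 and a difference between populations of -0.76 ± 0.28 (limma adjusted p 1.00). The ligands Angpt1 (0.22 ± 0.18) and Angpt2 (0.23 ± 0.16) had intervals that included 0, as did Angptl2 (-0.22 ± 0.26).

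Of 7 PDGF genes 6 were kept, 0 passed and 0 had an unadjusted p under 0.05 in limma, with a median of 0.08. The receptor Pdgfrb differed by 0.17 ± 0.11, with a 95% interval of -0.06 to 0.40, and had 0.16 in CD140a-positive and 0.17 in CD146-positive cells. Pdgfa gave 0.35 ± 0.23, Pdgfc 0.13 ± 0.29 and Pdgfra -0.17 ± 0.14. Pdgfc was -0.14 without CD146 control replicate 2.

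Among factors that mesenchyme supplies to thymic epithelium and precursors of T cells, 16 of 22 listed genes were kept, 0 passed, 11 were below 0, and the median was -0.05. Fgf7, which drives growth of thymic epithelium through FGFR2, was the member of smallest p. It lies on the plus strand of chromosome 2 (126034658 to 126091185) and stood at 43.9 and 34.5 FPKM in controls and 29.1, 23.5, 17.99 and 29.9 with Trap in CD140a-positive cells. In CD146-positive cells Fgf7 stood at 2.26 and 1.49 FPKM in controls and 0.76, 1.27, 0.46 and 1.37 with Trap. All Trap libraries lay below both controls of their population. The pooled difference was -0.60 ± 0.18, with a 95% interval of -0.98 to -0.22 and a limma adjusted p of 0.581. Fgf10, which shares that receptor, did not reach the filter in CD146-positive cells and was singled out after its values were seen. In CD140a-positive cells Fgf10 stood at 64.9 and 61.9 FPKM in controls and at 38.4, 39.9, 40.0 and 45.9 FPKM with Trap, without overlap. With all genes tested and no filter, its CD140a difference was -0.62 ± 0.18 and its limma adjusted p 0.772.

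Aldh1a3, a retinaldehyde dehydrogenase that makes retinoic acid, was 14.7 and 6.59 FPKM in controls and 6.15, 6.32, 6.16 and 5.82 with Trap in CD140a-positive cells. In CD146-positive cells it was 1.32 and 1.57 FPKM in controls and 0.05, 0.15, 1.44 and 0.62 with Trap. Trap lay below both controls in CD140a-positive cells, the CD146 groups overlapped, and the pooled difference was -0.67 ± 0.24. Stem cell factor (Kitl) gave 0.15 ± 0.12 and the chemokine Cxcl12 -0.24 ± 0.20, each with an interval that included 0.

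No matrix or identity gene passed the test. Of 17 collagen genes 16 were kept and 0 passed, with 12 above 0, a median of 0.08, 3 higher and 1 lower at an unadjusted p under 0.05 (against 2.44% and 4.18% of all genes). Col6a2, a chain of microfibrillar collagen VI, stood at 210 and 164 FPKM in controls and 240, 226, 248 and 207 with Trap in CD140a-positive cells. In CD146-positive cells Col6a2 stood at 95.6 and 114 FPKM in controls and 156, 126, 141 and 202 with Trap, all above both controls, and the pooled difference was 0.43 ± 0.13 (limma adjusted p 0.581). Its partner chains gave 0.21 ± 0.12 for Col6a1 and 0.15 ± 0.08 for Col6a3. Col18a1, the precursor of endostatin, gave 0.44 ± 0.15, and Col16a1 -0.37 ± 0.16. Col5a3 gave 0.37 ± 0.14 pooled, with 0.05 in CD140a-positive and 0.70 in CD146-positive cells and a difference between them of -0.65 ± 0.24 (limma adjusted p 1.00).

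All 15 mesenchymal markers were kept and 0 passed, with a median of 0.07, 11 above 0, and 1 gene in each direction at an unadjusted p under 0.05 (against 2.44% of all genes higher and 4.18% lower). Those were Col6a2 and the sphingosine phosphate receptor S1pr3 (-0.33 ± 0.15). Col3a1 gave -0.15 ± 0.09, with a 95% interval of -0.34 to 0.05. Of 17 fibroblast markers 14 were kept, 0 passed and 0 had an unadjusted p under 0.05, with 8 below 0 and a median of -0.07. The proteoglycan Lum gave -0.37 ± 0.23 and the surface protein Cd34 0.19 ± 0.17.

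Of 17 pericyte and smooth muscle markers 14 were kept and 0 passed, with 8 below 0 and a median of -0.04. Kcnj8, the pore of the pericyte ATP-sensitive potassium channel, stood at 33.8 and 30.9 FPKM in controls and 18.8, 29.6, 19.3 and 15.6 with Trap in CD140a-positive cells. In CD146-positive cells Kcnj8 stood at 60.6 and 99.95 FPKM in controls and 50.7, 36.9, 55.3 and 63.7 with Trap. Trap lay below both controls in CD140a-positive cells and overlapped in CD146-positive cells, and the pooled difference was -0.63 ± 0.18 (limma adjusted p 0.569). Abcc9, the channel's regulatory subunit, gave -0.12 ± 0.12, and Mcam gave 0.33 ± 0.14 pooled. The Mcam change was 0.52 in CD140a-positive cells, at low levels (1.09 to 2.96 FPKM). In CD146-positive cells it was 0.14, and the Mcam groups overlapped. In these bulk libraries, fewer cells of a type and less RNA per cell cannot be told apart.

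Cell cycle genes had the most one-sided values among lists with at least 6 kept genes. In group means, DNA replication was one-sided in CD146-positive cells and mitosis in both populations, but mitosis was not so in each Trap library. For DNA replication 28 of 29 genes were kept, 0 passed, 25 were below 0 (89.3%, against 53.9% of all genes), and 6 were lower at an unadjusted p under 0.05 (against 4.18% of all genes). The median was -0.30, with -0.02 in CD140a-positive cells (15 of 28 below 0, against 53.3% of all genes) and -0.62 in CD146-positive cells (27 of 28, against 52.6%). Of those 28, 1 gene in CD140a-positive (against 2.77% of all genes) and 10 in CD146-positive cells (against 3.7%) were lower at an unadjusted p under 0.05. For mitosis and the spindle 27 of 28 were kept, 0 passed, 25 were below 0 (92.6%), 5 were lower at an unadjusted p under 0.05 (against 4.18%), and the median was -0.51. In CD140a-positive cells its median was -0.28, with 22 of 27 below 0, and in CD146-positive cells -0.71, with 26 of 27. Without CD146 control replicate 1 the pooled medians were -0.15 (18 of 28 below 0) for DNA replication and -0.31 (22 of 27) for mitosis. Without the pair that scored high on the second component they were -0.15 (17 of 28) and -0.39 (24 of 27).

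Per library, DNA replication in CD146-positive cells had medians of 0.17 and -0.17 in controls, relative to their mean, and -0.54, -0.43, -0.68 and -0.87 with Trap. In CD140a-positive cells the medians were -0.14 and 0.14 in controls and -0.11, -0.09, -0.02 and 0.34 with Trap. The groups lay apart in CD146-positive cells and overlapped in CD140a-positive cells. Other lists also had CD146-positive medians that lay apart. With Trap they were -0.30 to -0.12 for the unfolded protein response and -0.34 to -0.10 for ribosomal proteins, with controls at -0.09 and 0.09 in both lists. For 4 adipocyte markers they were higher, at 0.46 to 1.03, with controls at -0.14 and 0.14. The mitosis list overlapped in both populations, with Trap medians from -1.25 to -0.08 in CD146-positive and from -0.84 to 0.28 in CD140a-positive cells against control values within 0.34 of 0. In CD140a-positive cells 26 and 1 of the 27 genes lay below the control mean in controls, and 22, 25, 13 and 3 with Trap. In CD146-positive cells these counts were 7 and 20 in controls and 25, 16, 24 and 26 with Trap. Over all 11470 genes they ran from 5671 to 6169. The CD140a change exceeded the CD146 change in 26 of 28 replication and 23 of 27 mitosis genes (against 50.3% of all genes), and 0 of them passed the test of that difference.

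**Figure D4:**
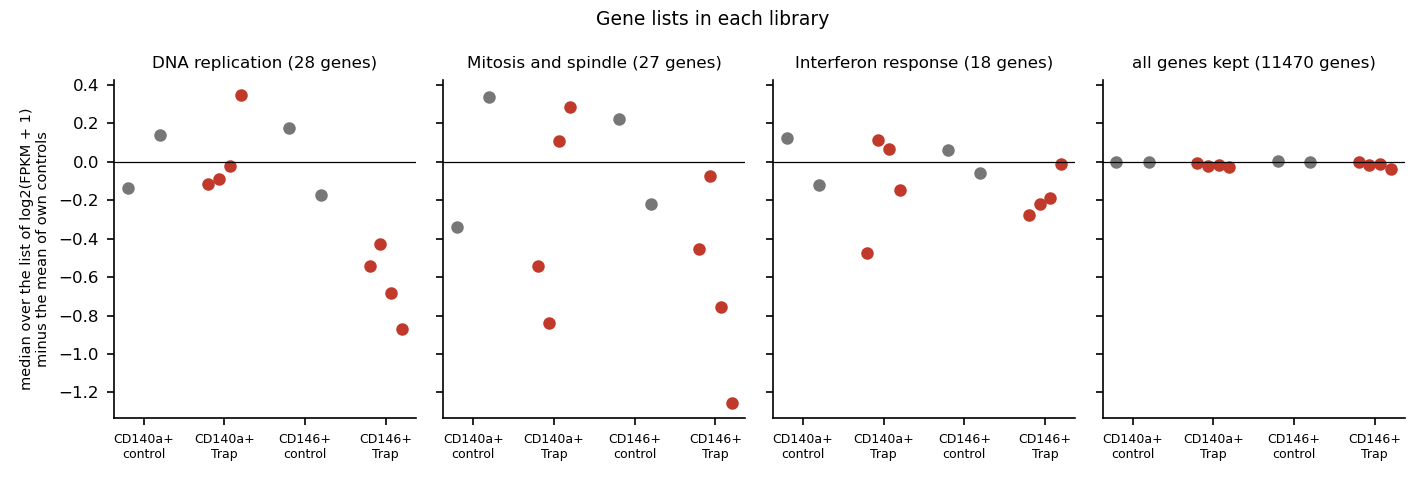
Each point is 1 library, grey for control and red for Trap, at the median over a list of log2(FPKM + 1) minus the mean of its own population's controls. In DNA replication the 4 CD146-positive Trap libraries lie below both controls, at -0.87 to -0.43, while the CD140a-positive groups overlap. All 11470 genes together lie close to 0 in each library.

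Rpa3, the smallest subunit of replication protein A, stood at 12.5 and 13.9 FPKM in controls and 6.75, 6.32, 5.32 and 11.7 with Trap in CD140a-positive cells. In CD146-positive cells Rpa3 stood at 8.22 and 6.76 FPKM in controls and 1.19, 4.53, 3.64 and 0.65 with Trap. Both groups lay apart, and the pooled difference was -1.12 ± 0.30 (limma adjusted p 0.555). The helicase subunit Mcm4 gave -0.37 ± 0.15 and its partner Cdc45 -0.61 ± 0.25. Kif11, the motor that separates spindle poles, stood at 12.2 and 15.8 FPKM in controls and 10.9, 7.86, 12.6 and 14.8 with Trap in CD140a-positive cells. In CD146-positive cells Kif11 stood at 25.9 and 18.8 FPKM in controls and 12.5, 12.7, 10.7 and 8.69 with Trap. Trap lay below both controls in CD146-positive and overlapped them in CD140a-positive cells, and the pooled difference was -0.61 ± 0.18. The mitotic kinase genes Ttk (-0.72 ± 0.23) and Cdk1 (-0.74 ± 0.31) and cyclin A2 (Ccna2, -0.60 ± 0.24) lay lower on average. Ccna2 shares exon sequence with Exosc9 and Cdc45 with Ufd1, each on the other strand.

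The proliferation marker Mki67, added after its values were seen, differed between libraries of 1 group by as much as between groups. It stood at 23.3 and 48.1 FPKM in controls and 22.6, 15.01, 32.97 and 56.1 with Trap in CD140a-positive cells. In CD146-positive cells Mki67 stood at 79.4 and 45.7 FPKM in controls and 43.5, 55.3, 27.4 and 19.4 with Trap, and its pooled difference was -0.53 ± 0.34.

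Interferon response, unfolded protein response and insulin-like growth factor (IGF) genes also had most pooled values on 1 side of 0, at small size. All 18 interferon genes in the table were kept, 0 passed and 16 were below 0 (88.9%, against 53.9% of all genes). At an unadjusted p under 0.05 in limma 2 were lower (against 4.18%), and the pooled median was -0.17. In CD140a-positive cells 12 of 18 were below 0 (median -0.14) and in CD146-positive cells 14 (-0.18), against 53.3% and 52.6% of all genes. Only 10 of the 18 had the same sign in both populations. CD140a-positive library medians with Trap were -0.47, 0.11, 0.06 and -0.15. Xaf1, an interferon-induced partner of the apoptosis inhibitor XIAP, stood at 9.12 and 8.85 FPKM in controls and 6.29, 7.62, 6.51 and 4.21 with Trap in CD140a-positive cells. In CD146-positive cells Xaf1 stood at 16.6 and 18.2 FPKM in controls and 15.9, 14.8, 12.9 and 16.4 with Trap, and the pooled difference was -0.35 ± 0.14. Its Trap libraries lay below both controls in both populations. Rtp4 gave -0.32 ± 0.15 and the RNA sensor Ddx58 -0.26 ± 0.13. Isg15, a ubiquitin-like protein, went the other way at 0.56 ± 0.27, with 1.10 in CD140a-positive and 0.03 in CD146-positive cells.

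Of 21 unfolded protein response genes, all kept, 0 passed and 18 were below 0 (85.7%, against 53.9% of all genes). At an unadjusted p under 0.05 in limma 2 were lower (against 4.18%), and the pooled median was -0.16. In CD140a-positive cells 13 of 21 were below 0 (median -0.03, against 53.3% of all genes). In CD146-positive cells 19 were (median -0.22, against 52.6%), and 13 of the 21 had the same sign in both populations. Creld2, secreted under stress of the endoplasmic reticulum, gave -0.44 ± 0.16, Ddit3 (CHOP) -0.30 ± 0.13, and the chaperones Hsp90b1 -0.20 ± 0.10 and Calr -0.16 ± 0.08. Ddit3 shares exon sequence with Mars on the other strand. Of 11 IGF genes 7 were kept, 0 passed and 0 had an unadjusted p under 0.05 in limma, with 6 above 0 (85.7%, against 46.1% of all genes) and a median of 0.11. Only 2 of the 7 had the same sign in both populations. Igf1 and Igfbp5 turned negative without CD140a control replicate 2 (-0.03 and -0.09). The receptor Igf1r gave 0.19 ± 0.10, the binding proteins Igfbp3 0.20 ± 0.16 and Igfbp5 0.12 ± 0.17, and the ligand Igf1 0.11 ± 0.15.

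Markers of cells outside the gates were summed in each library. The summed FPKM of 14 thymocyte markers was 3.71 to 6.62 in CD140a-positive controls and 6.54 to 13.1 with Trap, and 1.12 to 4.71 and 3.28 to 7.35 in CD146-positive cells. For 16 endothelial markers it was 54.9 to 67.1 and 48.3 to 66.4 in CD140a-positive cells, and 53.4 to 62.7 and 52.5 to 58.9 in CD146-positive cells. For 15 thymic epithelial markers it was 6.61 to 7.38 and 6.51 to 8.67, and 7.86 to 12.2 and 9.24 to 18.1. These sums overlapped between treatments in both populations, but for thymocyte markers in CD140a-positive cells only from 6.54 to 6.62. The mean thymocyte sum was higher with Trap, at 9.5 against 5.2 in CD140a-positive and 4.8 against 2.9 in CD146-positive cells. Mean epithelial sums were also higher with Trap, at 7.7 against 6.995 and 12.4 against 10.03. Mean endothelial sums were lower with Trap, at 54.7 against 61 and 55.9 against 58.04. Differences between these sums were not tested.

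The 14 myeloid and B cell markers summed to 29.2 to 35.6 FPKM in CD140a-positive controls, 13.8 to 47.7 with Trap, 36.4 to 50.9 in CD146-positive controls and 24.3 to 46.2 with Trap. Adipocyte markers (11 genes) summed to 17.3 to 18.6 in CD146-positive controls and 23.0 to 41.5 with Trap, without overlap, and to 81.5 to 96.4 and 73.7 to 106 in CD140a-positive cells. Erythroid markers (7 genes) did not exceed 30.8, mesothelial markers (7) 10.7, neural and Schwann markers (8) 23.4, and skeletal muscle and cartilage markers (12) 46.5 FPKM in any library. The part of these cells in the results above was not tested.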

How the data were processed

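The authors deposited FPKM values for 18847 protein-coding genes. Per the submitters' processing notes bcl2fastq 2.17, STAR and DESeq2 were used with GRCm38 and mm10, while their roles and the counting program are not given. Steps between low values did not give whole reads in any of the 12 libraries, so depth is unknown and an exact 0 means listed at 0. Of the identifiers, 18836 were found in GENCODE M21 (GRCm38), which gave the coordinates, and 27 symbols turned into dates were restored.

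Values were transformed as log2(FPKM + 1) and fitted in R 4.3.3 with limma 3.58.1 (population plus treatment, empirical Bayes with a variance trend, two-sided). A fit with 1 mean per group gave the changes within populations and their difference. Benjamini-Hochberg adjustment ran over the 11470 genes, with a threshold of 0.05. The code was tested on simulated data. Errors are SE unless stated.

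Named were the 12 genes of smallest p per direction (at least 5 FPKM, same sign in both populations), 6 per direction for the difference, VEGF and sorting genes, and up to 4 of smallest p per list described. A list was described when at least 80% of 6 or more kept members lay on 1 side of 0, or for its bearing on VEGF, mesenchyme or other cells. Members and lists were chosen with earlier results of these data known. The 27 alternatives are in the closing section.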

Additional observations from a re-analysis of the deposited data

Results flagged for a closer look

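In 8 of 180 groups of 4 Trap libraries checked over the named genes, 1 library stood far from the other 3 by Dixon's criterion. Chance gives about 1 in 20. In CD140a-positive cells, Chchd2 was 42.92 FPKM in Trap replicate 3 (others 37.45 to 37.79). Trap replicate 4 had 15.35 FPKM of Vegfc (others 10.67 to 11.27), 11.43 of Rbm43 (5.02 to 5.41) and 5.27 of Rmnd5b (5.74 to 5.79). In CD146-positive cells, Trap replicate 1 had 271.97 FPKM of Igfbp5 (others 220.94 to 222.96). Trap replicate 2 had 16.24 FPKM of Aldh18a1 (11.39 to 12.11) and 8.86 of Angpt1 (12.08 to 12.16), and Trap replicate 3 had 184.29 of Col3a1 (196.99 to 199.56).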

How the results depend on the processing

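In limma, 0 genes passed for the pooled change under 26 of 27 alternatives, and a pseudocount of 5 gave 1 (Tymp). Within CD146-positive cells no filter gave 6 lower genes (Hist1h4j, RP23-149C6.7, Prr19, Spata25, Apoc4 and Saa4) and a fit over all 30 libraries gave 1 (Mcm3, -1.35). Leaving out each library in turn gave 0 to 0 genes pooled and in CD146-positive cells, and 0 to 1 in CD140a-positive cells and for the difference, in both cases AC131692.9 without CD140a control replicate 2. Unadjusted p under 0.05 was met by 680 to 850 genes pooled when a library was left out, 1070 with no filter and 457 with a filter at 5 FPKM. Where a control was left out, the lone control of its population was assumed to vary like the other groups. With the pair of CD146-positive libraries left out together, an alternative chosen after seeing the data, 0 genes passed and 861 met it.

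Same-numbered libraries of the populations had deviations that correlated at 0.0038 to 0.0708. Between differently numbered libraries of the same treatment the correlation was -0.0473 to 0.0175. Whether same-numbered libraries share animals is not given. The numbers were not taken as pairs in the main fit, and pairing remains possible. With the replicate number as a block, 0 genes passed in any of the 4 comparisons.

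The 24 genes of smallest p kept their direction under each alternative, with an unadjusted limma p under 0.05 in 645 of 647 values. They were chosen for small p in these same libraries, so this describes them and tests nothing. Of 90 named genes 7 reversed. Figf was -0.0467 at a pseudocount of 5 and -0.53 to 0.50 over the fits without 1 library. Nrp1 was 0.0115 (TPM), 0.00658 (upper quartile), 0.00439 (quantile) and 0.0127 (replicate block), and -0.0423 to 0.0264 without 1 library. Pecam1 was 0.106 with the replicate block. Without 1 library, Enpep was -0.0143 to 0.232, Pdgfc -0.135 to 0.309, Igfbp5 -0.0931 to 0.305 and Igf1 -0.0338 to 0.207. The cause was not tested. With 2 controls per population and an unknown depth, a median SE of 0.189 sets the size of change that could be called.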

Other observations

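A total of 4 elastic fibre genes, singled out after their values were seen, varied widely among the CD146-positive libraries of each treatment. Eln, the gene of elastin, stood at 739 and 25.8 FPKM in control replicates 1 and 2 and at 131, 765, 42.6 and 21.2 FPKM in Trap replicates 1 to 4. Mfap4, a microfibril protein, stood at 61.7 and 0.33 FPKM in controls and at 4.28, 87.9, 2.11 and 0.21 FPKM with Trap. Fbln5, which helps assemble elastic fibres, stood at 79.8 and 1.23 FPKM and at 11.3, 83.5, 6.17 and 0.54 FPKM. Lox, which crosslinks elastin and collagen, stood at 147 and 12.2 FPKM and at 36.8, 159, 23.1 and 15.5 FPKM. Control replicate 1 and Trap replicate 2 were the highest in each of these 4 genes, and in 13 of the 27 genes of the proteoglycan and elastic fibre list. The share of all genes with these libraries highest was not counted, so the count describes the list and tests nothing. Other members of that list did not share this pattern. Fbn2 stood at 51.95 and 63.9 FPKM in controls and was lowest in Trap replicate 2, at 42.9 FPKM. Mfap2 stood at 3.56 and 6.34 FPKM in controls and was also lowest in Trap replicate 2, at 1.55 FPKM. Hspa1a, a heat shock chaperone, stood at 179 and 630 FPKM in the same controls and at 131, 172, 356 and 500 FPKM with Trap.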
